A study of Mus musculus with 4 samples.

Results

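The cells described here came from 4 mice (mice 5 to 8) in which Lgr5-expressing intestinal stem cells had been labelled and their descendants traced for 72 h. All cells, control cells included, carried the genotype Lgr5-EGFP-IRES-CreERT2;Rosa26-mTmG. In such animals the Lgr5 promoter, active in crypt base columnar cells, drives both EGFP and a tamoxifen-dependent Cre recombinase, and Cre switches the Rosa26 reporter from membrane tdTomato to membrane GFP in the cell and its progeny. Epithelium of the distal small intestine was taken after the villi had been scraped off, dissociated, stained for EpCAM, CD31 and CD45 and marked with 1 hashtag antibody per mouse. GFP-high cells were sorted as clones and GFP-negative cells of the same animals as control epithelium. The clones of mice 7 and 8 and the control cells of mice 5 and 6 were in pool 1, and the opposite gates were in pool 2. Strain, sex, age and the amount and route of tamoxifen were not given in the sources used here.

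Members were the barcodes of these 4 mice with at least 1000 gene UMIs (unique molecular identifiers, counts of captured mRNA molecules), at least 500 genes, under 20% mitochondrial UMIs and at least 60% of hashtag counts from 1 hashtag. These limits kept 1302 cells, 656 from clones and 646 from control epithelium, of 2011 cells kept over both tracing times and 5452 barcodes in all. Mice 5 to 8 gave 163, 37, 113 and 343 clone cells and 247, 134, 82 and 183 control cells. Counts were summed per mouse and gate, and the 8 sums held 779266 to 6964208 UMIs. The clone sum of mouse 6 was the thinnest. Median UMIs per cell ran from 18341 to 23664 in the clones and from 17871.5 to 27636 in the control cells, and median mitochondrial shares from 6.53% to 7.60% and from 6.18% to 9.11%. No barcode was shared between the pools among the kept cells.

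Epithelial markers were high in both gates, and their summed level was lower in the clones. For 8 such markers it was 10912.9 to 13040 CPM in the clones and 14018.2 to 16073.5 CPM in the control cells. Epcam, which encodes the surface protein used for staining, stood at 2170 to 2439 CPM (counts scaled to a library of 1000000) in the clones and at 2218 to 2469 in the control cells. The summed level of 13 immune markers was 2.84 to 19.9 CPM in the clones and 2.78 to 49.4 CPM in the control cells, that of 7 endothelial markers 4.81 to 9.43 and 3.63 to 5.99, that of 9 stromal markers 2.84 to 9.59 and 2.62 to 16.2, and that of 5 erythroid markers at most 0.497 and 0.207. Col1a1 was at 0 in all 8 sums. The reporters themselves could not be checked, because the count matrices list no EGFP, tdTomato or Cre feature. EGFP is also made from the Lgr5 allele, and where the GFP-high gate was set is not given in the sources used here. Selection of cells by current Lgr5-EGFP and selection by traced GFP therefore cannot be told apart in any comparison below.

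In the small-intestinal crypt, Lgr5-positive stem cells sit between Paneth cells at the base and are held in the stem state by Wnt and Notch signals. Daughter cells that leave the base divide several more times. Those under Notch signalling express Hes1 and become absorptive enterocytes, while those that escape it express Atoh1 and become goblet, Paneth or enteroendocrine cells. Tuft cells are counted with the secretory classes below. The title of the series asks about the earliest secretory steps out of the Lgr5-positive cell. The comparison at 72 h asks how the labelled progeny differed from unlabelled epithelium of the same animals.

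Clustering of all kept cells gave 13 clusters, which were named from marker lists. Stem-like cells (clusters 5, 7 and 12, led by Lgr5, Olfm4, Pdgfa and Edn1) numbered 231 in the clones and 130 in the control epithelium. Dividing cells, in 4 clusters led by histone, replication or mitotic genes, numbered 229 and 200. There were 51 and 71 secretory progenitor-like cells (Dll1, Atoh1, Spdef, Creb3l1), 64 and 104 goblet-like cells (Zg16, Clca1, Fcgbp, Muc2), 16 and 27 Paneth-like cells (Lyz1 and alpha-defensins), 12 and 18 tuft-like cells (Dclk1, Trpm5) and 5 and 7 enteroendocrine-like cells (Chga, Chgb, Gcg). Enterocyte-like cells, 48 and 89, were led by ileal genes such as Fabp6, Slc51a and Slc51b. With the mice pooled, the 72 h clones thus held cells named to every class found in the control epithelium. By mouse this did not hold. Enteroendocrine-like clone cells came from mouse 8 only, and mouse 7 gave 0 tuft-like clone cells. A doublet caller marked only 3 of the 1302 cells, so mixed droplets were in effect not removed.

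The clones held a larger share of stem-like cells and a smaller share of enterocyte-like cells than the control cells of the same mouse in 4 of 4 mice, but no class passed after adjustment for 8 classes. Stem-like cells made up 49.7%, 32.4%, 48.7% and 24.2% of the clone cells of mice 5 to 8, against 23.1%, 31.3%, 20.7% and 7.65% of their control cells. The gap was wide in mice 5, 7 and 8 and about 1 percentage point in mouse 6, and the gates overlapped. The means were 38.7% ± 12.5 and 20.7% ± 9.82 (SD, n = 4 each), a difference of 18.0 percentage points (exact two-sided permutation test, p = 0.0571, adjusted p = 0.229; exact sign flips within mice, p = 0.125). Enterocyte-like cells came to 4.29%, 2.70%, 5.31% and 9.91% in the clones and to 13.4%, 10.4%, 14.6% and 16.4% in the control epithelium. Every clone share was below every control share, with means of 5.55% ± 3.10 and 13.7% ± 2.50 (SD, n = 4 each; exact permutation test, p = 0.0286, adjusted p = 0.229). With 4 against 4 sums 0.0286 is the smallest p possible, and with 4 sign flips it is 0.125.

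**Figure D1:**
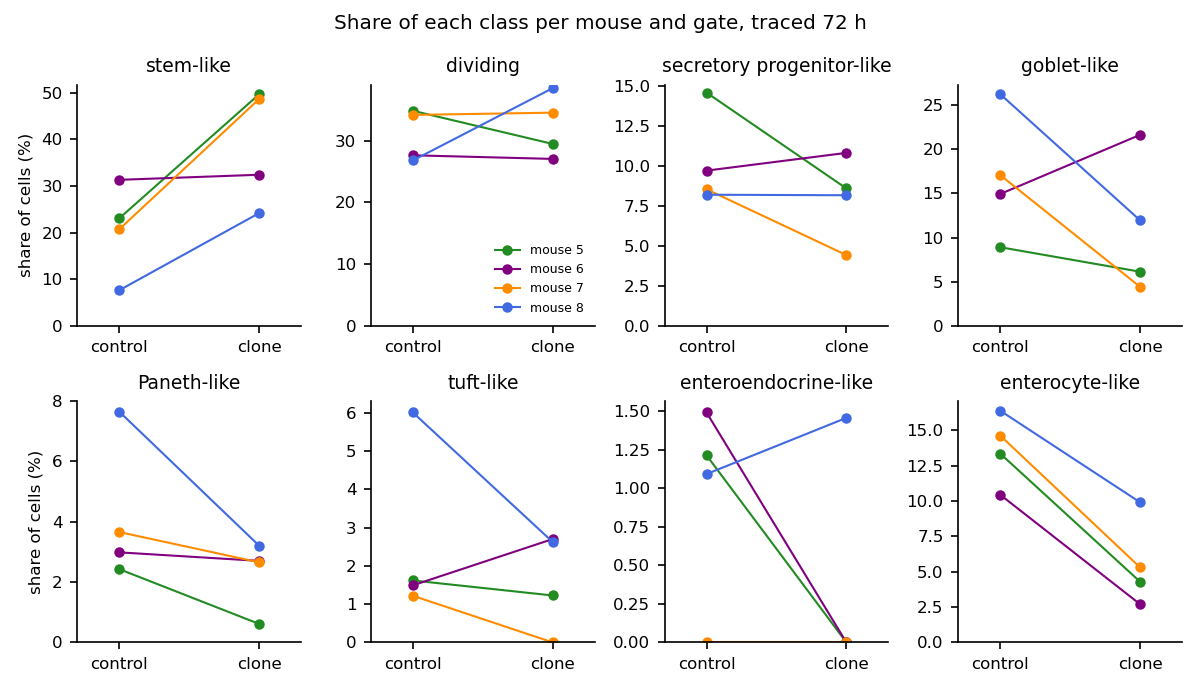
Share of cells (%, vertical axis, from 0) of 8 classes in the control and clone cells of mice 5 to 8, with 1 line per mouse. Stem-like shares are higher and enterocyte-like and Paneth-like shares lower in the clones of 4 of 4 mice, while the secretory progenitor-like and goblet-like lines cross.

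The secretory classes together came to 16.6%, 37.8%, 11.5% and 27.4% in the clones of mice 5 to 8 and to 28.7%, 30.6%, 30.5% and 49.2% in their control epithelium. They were lower in the clones of 3 mice and higher in those of mouse 6, with only 37 clone cells. The means were 23.3% ± 11.7 and 34.8% ± 9.66 (SD, n = 4 each; exact permutation test, p = 0.2). Secretory progenitor-like cells had closer means, 8.00% ± 2.65 in the clones and 10.3% ± 2.95 in the control cells (SD, n = 4 each; exact permutation test, p = 0.4, adjusted p = 0.533). Goblet-like cells stood at 11.0% ± 7.76 and 16.8% ± 7.18 (p = 0.343, exact permutation test, n = 4 each). Paneth-like cells stood at 2.29% ± 1.15 and 4.18% ± 2.37 and were lower in the clones of 4 of 4 mice (p = 0.2, exact permutation test, n = 4 each). The permutation tests do not use the pairing by mouse. Exact sign flips within mice gave p = 0.125 for Paneth-like cells, the smallest possible. At a finer clustering (Leiden resolution 1.5), however, the clone mean of Paneth-like cells was higher by 0.11 percentage points. Tuft-like cells had means of 1.64% and 2.59%. Enteroendocrine-like cells were found among the clones of mouse 8 only, where they were 5 of 343. In the clones of mouse 6, 0 of 37 cells allows a share of up to 8.11% by counting error alone. Dividing cells made up 32.4% ± 5.13 of all cells in the clones and 30.8% ± 4.23 in the control epithelium (SD, n = 4 each; exact permutation test, p = 0.657).

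In the sums over all cells, genes of the crypt base and of Wnt signalling were higher in the clones, and genes of mature secretory and absorptive cells were lower. With edgeR's quasi-likelihood test, paired by mouse and with a term for the pool, 201 of 10656 genes tested (1.89%) were higher in the clones and 256 (2.4%) were lower at a Benjamini-Hochberg adjusted p under 0.05. Of the 457 called genes, 375 moved the same way in 4 of 4 mice. The calls depended on the pairing. Without the mouse in the model no gene passed, 797 had an unadjusted p under 0.05 and the lowest adjusted p was 0.198. DESeq2 with the same pairing called 49 genes higher and 87 lower, 135 of them among the 457. With 3 mice the calls depended on which mouse was left out, with 22 higher and 30 lower without mouse 5, 81 and 124 without mouse 7, 94 and 137 without mouse 8, and 401 and 736 without mouse 6. Such fits have fewer residual degrees of freedom, and a single mouse then carries its arrangement of gates over the pools. The animal left out and the reduced design therefore cannot be told apart, here or in the leave-outs below. Clone and control values did not overlap for 475 genes (4.46% of those tested). In a sum, fewer cells of a type and less RNA per cell of that type cannot be told apart.

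**Figure D2:**
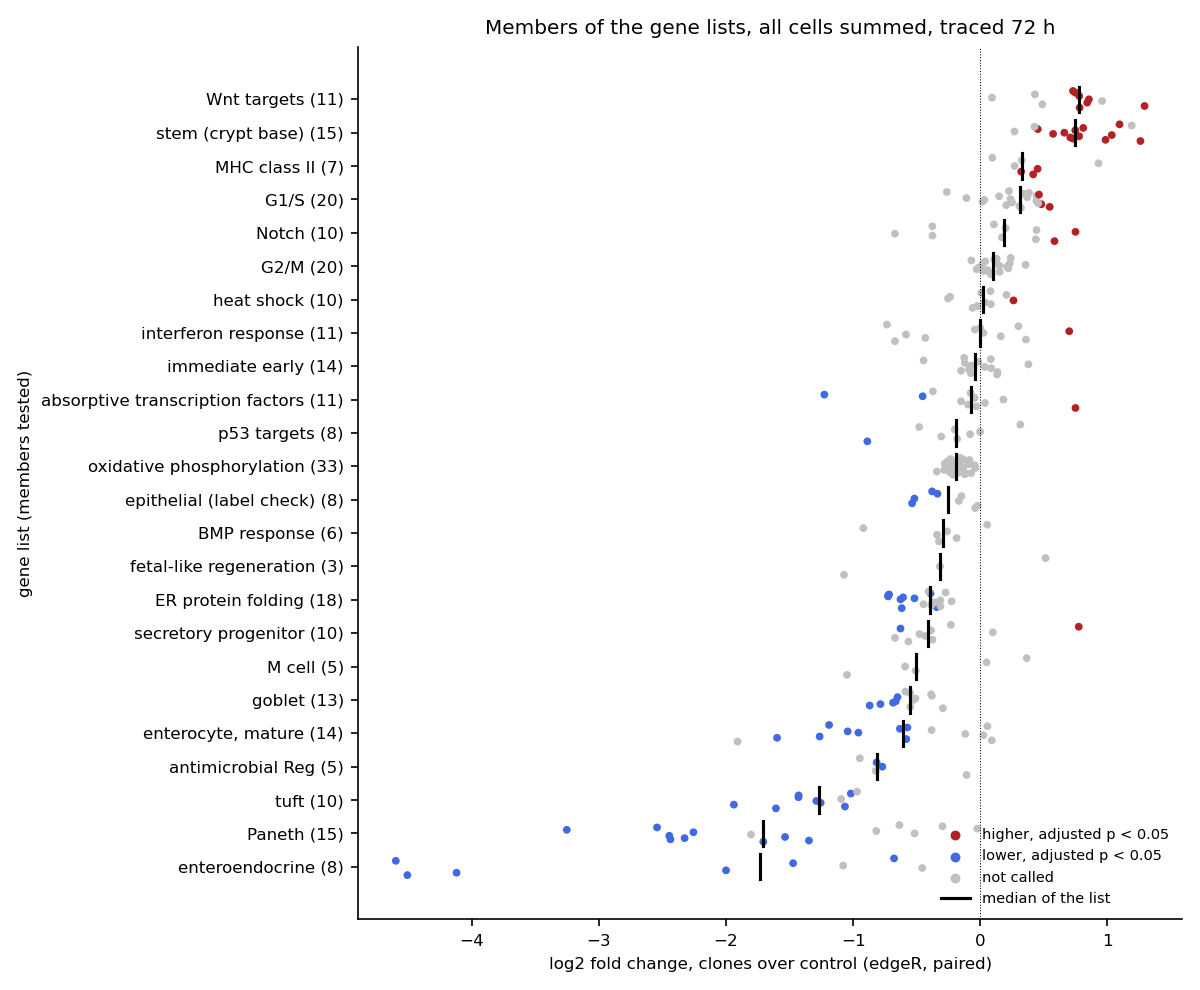
Log2 fold change of clones over control (horizontal axis, edgeR, paired by mouse, all cells summed) for the tested members of each gene list, with 1 point per gene; red and blue points passed an adjusted p of 0.05 and black bars are list medians. The stem and Wnt lists lie to the right of 0 and the Paneth, enteroendocrine and tuft lists far to the left, while cell cycle and oxidative phosphorylation genes stay near 0.

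The crypt base list had 12 of its 15 tested members called higher and none lower, with a median log2 fold change of 0.75 against 0.00317 over all tested genes. Lgr5 (ENSMUSG00000020140, chr10:115450311-115587780 in GRCm38), the R-spondin receptor that marks these stem cells and whose promoter was used for labelling, was at 131, 79.4, 149 and 89.6 CPM in the clones of mice 5 to 8 and at 54.0, 66.2, 47.6 and 29.3 CPM in the control cells. Clone and control values did not overlap, and mouse 6 showed the smallest gap. The log2 fold change was 1.26 ± 0.15 (SE, adjusted p = 0.00288 in edgeR). Olfm4 (ENSMUSG00000022026, chr14:79984081-80023139), which encodes a secreted glycoprotein of crypt base cells, was at 2987, 2465, 3674 and 2064 CPM in the clones and at 1490, 1376, 1958 and 906 CPM in the control cells. It too did not overlap between the gates and was about equally raised in each mouse, by 0.99 ± 0.06 on the log2 scale (adjusted p = 5.06e-05 in edgeR). Pdgfa, a growth factor that signals to the surrounding mesenchyme, was at 196, 149, 296 and 196 CPM in the clones and at 92.2, 99.3, 132 and 71.9 CPM in the control cells (log2 fold change 1.10 ± 0.10). The other called members were Ascl2, a transcription factor of stem cells, Smoc2, Rgmb, Tnfrsf19, Slc12a2, Cdk6, Sox9, Lrig1 and Igfbp4. Their log2 fold changes ran from 0.45 for Lrig1, a brake on growth factor receptors, to 1.03 for Tnfrsf19. The called members were all higher in 4 of 4 mice. With 1 mouse left out 7 to 12 of them passed. Lgr5, Olfm4 and Pdgfa passed without any 1 mouse, while Ascl2, Tnfrsf19, Cdk6, Lrig1 and Igfbp4 did not pass without mouse 5, nor Lrig1 and Tnfrsf19 without mouse 7 or 8, nor Ascl2 without mouse 8.

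**Figure D3:**
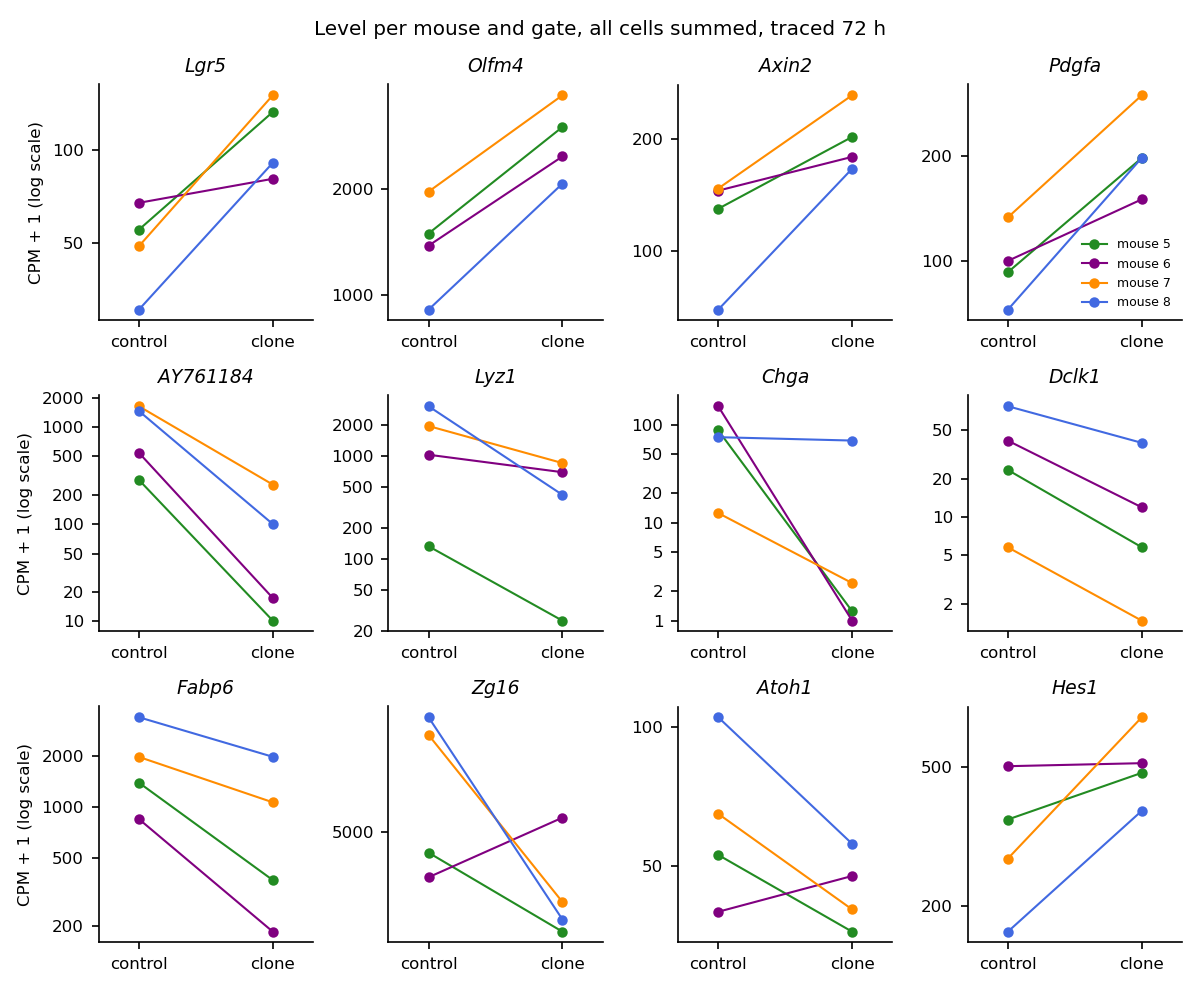
CPM plus 1 (vertical axis, log scale, a range of its own for each gene) of 12 genes in the summed control and clone cells of mice 5 to 8, with 1 line per mouse. Lines for Lgr5, Olfm4, Axin2, Pdgfa and Hes1 go up in 4 of 4 mice and those for AY761184, Lyz1, Chga, Dclk1 and Fabp6 go down, while the mouse 6 lines of Zg16 and Atoh1 cross the others.

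Wnt target genes had 7 of 11 tested members called higher and none lower (median log2 fold change 0.78). They were Axin2, Sp5, Rnf43, Cd44, Ephb3, Sox9 and Ascl2, the last pair also on the stem list. Axin2 (chr11:108920349-108950783), a feedback inhibitor of the pathway, was at 202, 178, 261 and 165 CPM in the clones and at 129, 144, 146 and 68.3 CPM in the control cells. These did not overlap, and the log2 fold change was 0.78 ± 0.10 (adjusted p = 0.00475 in edgeR). Sp5, a transcription factor induced by Wnt, was at 31.8, 24.6, 29.8 and 17.6 CPM in the clones against 12.5, 11.3, 13.6 and 6.40 CPM (log2 fold change 1.29 ± 0.16). Without mouse 5 only Axin2 and Sox9 of the 7 passed (Sp5 then had an adjusted p of 0.0995), and without each of the other mice 6 to 8 members of the list did. Cd44, an adhesion receptor of crypt cells, was at 63.6, 50.7, 87.9 and 63.8 CPM against 34.6, 42.4, 46.1 and 28.9 CPM. Rnf43, a ubiquitin ligase that removes Wnt receptors, and Ephb3, a receptor that positions cells along the crypt, were higher by 0.84 ± 0.11 and 0.78 ± 0.14 on the log2 scale. Sp5 and Tnfrsf19 had, in the 250 bases before their start, the letters CTTTGA or their reverse complement TCAAAG, the core of the sequence bound by TCF/LEF factors, the nuclear partners of beta-catenin. They were the only such genes among 13 called stem or Wnt genes with an entry in RefSeq's promoter table (GRCm38.p6), where 2 of 18 promoters held the letters, against 13.8% of 32851 promoters in the whole table. Another Tnfrsf19 promoter in that table did not hold the letters. The match is a description of letters and not of binding. Each sequence is printed from 5′ to 3′ on the gene's strand, with the matches in capitals: Sp5 at chr2:70474673-70474922 on the plus strand, and Tnfrsf19 at chr14:61037988-61038237 on the minus strand.
Sp5: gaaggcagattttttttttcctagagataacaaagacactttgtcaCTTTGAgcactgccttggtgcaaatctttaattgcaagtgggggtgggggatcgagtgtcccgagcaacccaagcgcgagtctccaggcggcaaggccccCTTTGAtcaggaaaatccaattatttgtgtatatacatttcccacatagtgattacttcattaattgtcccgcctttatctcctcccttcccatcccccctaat
Tnfrsf19: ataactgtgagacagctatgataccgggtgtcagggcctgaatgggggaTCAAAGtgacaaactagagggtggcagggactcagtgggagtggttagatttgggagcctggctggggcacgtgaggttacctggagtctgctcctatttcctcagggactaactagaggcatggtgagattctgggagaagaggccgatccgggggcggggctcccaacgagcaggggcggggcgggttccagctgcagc

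Among the 12 called genes with the largest fold changes upward and at least moderate levels (average log2 CPM of 4 or more), 4 are on these lists: Sp5, Lgr5, Pdgfa and Olfm4. The others were Retnlb, Rgcc, Gm830, Arc, Bex4, Edn1, Timp3 and Bex1, with log2 fold changes from 0.97 for Bex1 to 2.07 for Retnlb. Retnlb encodes a secreted antibacterial protein known from goblet cells. It was at 8.69, 199.9, 1.89 and 65.7 CPM in the clones and at 0.795, 14.5, 0.524 and 50.6 CPM in the control cells. It was higher in 4 of 4 clones but spanned 2 orders of magnitude between animals, rested on 1 to 478 UMIs per sum, and was not past the test without mouse 8 (adjusted p = 0.051). Edn1, the precursor of the peptide endothelin 1, was at 364, 219, 345 and 118 CPM against 185, 139, 148 and 37.6 CPM (1.14 ± 0.10, adjusted p = 0.000573 in edgeR). Edn1, Timp3 and Gm830 were also leading genes of stem-like cluster 5, to which the clones gave 106 cells and the control epithelium 45. Timp3 and Bex1 did not pass without mouse 5.

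Notch signalling had 2 of 10 tested members called higher, the receptor Notch1 (log2 fold change 0.58 ± 0.14) and the target Hes1, and none lower. Hes1 (chr16:30064384-30067796), the repressor that opposes the secretory fate, was at 480, 512, 694 and 374 CPM in the clones and at 353, 502, 272 and 168 CPM in the control cells. The groups overlapped through mouse 6, whose values were nearly equal, and the log2 fold change was 0.75 ± 0.09 (adjusted p = 0.00271 in edgeR). Hes1 passed without any 1 mouse but not without the pool term (adjusted p = 0.074), and Notch1 did not pass without any 1 of mice 5, 7 and 8. The Notch ligand Dll1, which marks early secretory cells, was not called (-0.38 ± 0.13, adjusted p = 0.13).

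The secretory progenitor list had few called members. Of 10 tested, Sox4, a transcription factor of early differentiating cells, was called higher (0.77 ± 0.12, in 3 of 4 mice and not in mouse 6) and Hepacam2, a membrane protein of secretory cells, lower (-0.63 ± 0.13, in 3 of 4 mice), and the list median was -0.41. Neither passed without mouse 5, nor Hepacam2 without mouse 7 or 8. Atoh1 was at 35.0, 46.6, 39.2 and 54.8 CPM in the clones and at 51.8, 38.8, 63.9 and 104 CPM in the control cells. It was lower in the clones of 3 mice and higher in those of mouse 6, and its adjusted p lay at the threshold (log2 fold change -0.57 ± 0.14, adjusted p = 0.0501 in edgeR). Without mouse 6 it passed (-0.71, adjusted p = 0.00019). Neurog3, the factor that starts the enteroendocrine lineage, ranged from 0 to 7.70 CPM in the clones and from 0 to 18.2 CPM in the control cells and was not called.

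Paneth cell genes were lower in the clones, though not all of them in each mouse. Of 15 tested members of the list, 9 were called lower and none higher (median log2 fold change -1.71), 3 of the 9 in 4 of 4 mice. With 1 mouse left out 7 to 12 passed. The summed level of the list was lower in the clones of mice 5, 7 and 8. In mouse 6 it was higher, at 10649 CPM in the clones against 6774 CPM in the control cells. AY761184 (ENSMUSG00000058618, chr8:21702519-21703645), an alpha-defensin gene, was at 9.19, 16.4, 255 and 99.5 CPM in the clones of mice 5 to 8 and at 286, 544, 1641 and 1467 CPM in the control cells. Every clone value lay below every control value, and the log2 fold change was -4.14 ± 0.19 (adjusted p = 6.55e-06 in edgeR). Defa34 was at 1.49, 19.2, 12.8 and 7.70 CPM against 52.4, 68.2, 320 and 358 CPM, again without overlap (-4.37 ± 0.30). AY761184 and Defa34 are not members of the list. Alpha-defensin genes are near-identical copies, so how the counting shared reads among them is uncertain. Lyz1 (chr10:117287797-117292868), the lysozyme of Paneth granules and not a defensin, was at 24.3, 696, 853 and 419 CPM against 132, 1028, 1953 and 3038 CPM. It was lower in the clones of each mouse with overlapping groups (-1.71 ± 0.30, adjusted p = 0.0177 in edgeR), and not past the test without mouse 5 (-1.30, adjusted p = 0.0785). Itln1, a lectin, was at 36.7, 571, 636 and 151 CPM against 337, 731, 2406 and 2001 CPM (-2.26 ± 0.41). Paneth-like cells numbered 16 in the clones, 11 of them from mouse 8, and 27 in the control epithelium, and these levels did not come from them alone. In the clones of mouse 6, 347 of the 508 Lyz1 UMIs were in 4 secretory progenitor-like cells. Defa24, the most abundant member, was at 1245, 7698, 2106 and 2400 CPM in the clones of mice 5 to 8. In their control cells it was at 3637, 3840, 17494 and 14020 CPM. It was thus higher in the clones of mouse 6 and lower in those of mice 5, 7 and 8 (-1.54 ± 0.32, adjusted p = 0.0316 in edgeR). By class, Defa24 stood at 39079 CPM in Paneth-like clone cells and at 112273 in Paneth-like control cells. It was at 5426 and 7881 CPM in goblet-like cells and at 2899 and 684 CPM in progenitor-like cells of the 2 gates, against 39.6 and 45.6 CPM in enterocyte-like cells, which do not make it. Of the 5622 Defa24 UMIs in the clones of mouse 6, 2909 were in goblet-like and 2107 in progenitor-like cells. Mixed droplets were in effect not removed, and their part in these values was not tested.

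Goblet cell genes were lower too. Of 13 tested members, 5 were called lower (Fcgbp, Clca1, Zg16, Agr2 and Tpsg1) and none higher, 2 of the 5 in 4 of 4 mice, with a median of -0.55. Without mouse 5, 7 or 8 there were 3 and without mouse 6 all 13. Fcgbp, a protein of the mucus layer, was at 1194, 1769, 974 and 1505 CPM in the clones and at 2463, 1847, 2313 and 3259 CPM in the control cells, without overlap (-0.87 ± 0.13, adjusted p = 0.00793 in edgeR). Zg16, a lectin secreted with mucus, was at 3064, 5350, 3542 and 3251 CPM against 4509, 3997, 8016 and 8738 CPM. It was lower in 3 mice and higher in mouse 6 (-0.69 ± 0.12, adjusted p = 0.0192), and lay at the threshold without mouse 8 (adjusted p = 0.0503). Muc2 (chr7:141690340-141754693), the gel-forming mucin, was at 1220, 4272, 1630 and 2576 CPM against 1791, 2698, 2090 and 4869 CPM and was not called (-0.29 ± 0.16, adjusted p = 0.346). Genes for protein folding in the endoplasmic reticulum, a machinery that secretory cells use heavily, were lower beside them, 9 of 18 called, 7 of these in 4 of 4 mice, with a median of -0.40. Without mouse 5 only 1 of the 18 passed, and without mouse 6 there were 15. Hspa5, the chaperone BiP, was at 498, 396, 498 and 868 CPM in the clones and 698, 529, 984 and 1305 CPM in the control cells (-0.62 ± 0.08, adjusted p = 0.00363 in edgeR).

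Tuft cell genes had 8 of 10 tested members called lower, 6 of them in 4 of 4 mice (median -1.27). Without mouse 5 or 8 only 2 passed. Dclk1 (chr3:55242364-55539068), a kinase that marks tuft cells, was at 4.72, 11.0, 0.473 and 38.3 CPM in the clones and at 22.8, 40.0, 4.71 and 76.4 CPM in the control cells. Each clone value was below that of its own mouse, although the animals differed so much that the groups overlapped (-1.61 ± 0.19, adjusted p = 0.00272 in edgeR). The tuft-like cells behind it numbered 12 and 18. Enteroendocrine genes had 6 of 8 tested members called lower (median -1.74), but only 2 of the 6 in 4 of 4 mice. Without mouse 8 there were 2, of 4 tested. Chga (chr12:102554969-102565028), a protein of hormone granules, was at 0.248, 0, 1.42 and 67.6 CPM in the clones and at 86.4, 153, 11.5 and 73.3 CPM in the control cells. The related Chgb was at 0.993, 0, 3.31 and 309 CPM against 268, 500, 1.57 and 275 CPM. Both were nearly missing from the clones of mice 5, 6 and 7, and in mouse 8, the only animal with enteroendocrine-like cells among its clones, they were about as high as in the control cells. The fitted fold changes, -4.51 ± 0.40 and -4.12 ± 0.20, depend on the small count that edgeR adds to sums of 0, and neither passed without the pool term (adjusted p = 0.162 and 0.207).

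Enterocyte genes were lower as well, 8 of 14 tested and 5 of these in 4 of 4 mice, with a median of -0.61. Without mouse 5 only 1 passed, and without mouse 6 there were 10. Fabp6 (ENSMUSG00000020405, chr11:43596049-43601540), the bile acid-binding protein of ileal enterocytes and the leading gene of the enterocyte-like cluster, was at 370, 183, 1065 and 1974 CPM in the clones and at 1391, 849, 1971 and 3377 CPM in the control cells. It was lower in each mouse and overlapped between gates (-1.44 ± 0.07, adjusted p = 6.55e-06 in edgeR). Sis, the brush border enzyme sucrase-isomaltase, was at 23.1, 16.4, 31.2 and 44.5 CPM against 115, 37.2, 145 and 54.7 CPM (-1.60 ± 0.29), and did not pass without mouse 5 (adjusted p = 0.387). Krt20, a keratin of differentiated cells, Anpep and Mttp were lower by 0.96 to 1.26 on the log2 scale, all but Krt20 failing the test without mouse 5. Mgam was not called, and Fabp1 and Alpi, at most 5.58 and 8.38 CPM in any sum, were too low to be tested. Of 11 transcription factors linked to absorptive cells, Hes1 was called higher, Klf4 (-0.45 ± 0.09) and Maf (-1.23 ± 0.14) lower, and 8 not called. Neither Klf4 nor Maf passed without mouse 5. Reg3b, an antibacterial lectin, was at 3739, 2424, 517 and 8380 CPM against 5901, 3274, 1462 and 11921 CPM. It was lower in each mouse (-0.77 ± 0.12), as was Reg3g, and was not past the test without mouse 5 (adjusted p = 0.11).

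Few cell cycle genes were called. Of 20 genes of the G1/S transition, Mcm3, Mcm6 and Hells were called higher (list median 0.31), none of them without any 1 of mice 5, 7 and 8,, and of 20 genes of G2 and mitosis none was called in edgeR, with 17 of 20 fold changes positive (median 0.10). Mki67, the proliferation marker, was at 352, 188, 371 and 314 CPM in the clones and at 299.7, 245, 424 and 206 CPM in the control cells. It was higher in the clones of mice 5 and 8 and lower in those of mice 6 and 7 (0.09 ± 0.14). The cell cycle inhibitor Cdkn1a was lower (-0.89 ± 0.14, adjusted p = 0.0122 in edgeR, in 3 of 4 mice) and the only one called among 8 p53 targets, and it did not pass without mouse 5 (adjusted p = 0.123). Krt8, a keratin of simple epithelia, was at 2154, 2166, 2037 and 2489 CPM against 3085, 2885, 3254 and 3615 CPM, without overlap (-0.54 ± 0.05), while Epcam was not called (-0.04 ± 0.05). Among the 8 epithelial markers, which include both, Krt8, Krt19, Vil1 and Lgals4 were called lower, and all 8 fold changes were negative. Of the 7 genes of MHC class II antigen presentation, H2-Aa, H2-Ab1 and H2-Eb1 were called higher by 0.32 to 0.45. H2-Ab1 was at 207, 335, 204 and 426 CPM against 156, 244, 176 and 369 CPM, a small lead in 4 of 4 mice that passed only narrowly (adjusted p = 0.0434) and not without any 1 of mice 5, 7 and 8. Immediate early genes, which respond to dissociation, had none of 14 called in edgeR (median -0.04), oxidative phosphorylation none of 33 (median -0.19, all 33 negative), BMP response none of 6 and M cell genes none of 5. Among 11 interferon response genes Ifitm3 alone was called (0.70 ± 0.09), and among 10 heat shock genes Hsp90ab1 alone (0.26 ± 0.05).

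To see whether the gates also differed among cells of 1 class, sums were made within each class. Only stem-like and dividing cells gave at least 10 cells in both gates in at least 3 mice. Among stem-like cells, 0 of 7189 genes were called in edgeR (373 had an unadjusted p under 0.05, and the lowest adjusted p was 0.141, of Edn1). Mice 5 to 8 gave 81, 12, 55 and 83 stem-like clone cells and 57, 42, 17 and 14 control cells. Thin sums limit what this test can call, so 0 calls do not show that the gates were equal. The 2 gates had 106 and 45 cells in cluster 5, 107 and 73 in cluster 7 and 18 and 12 in cluster 12. The part of this make-up was not tested. Lgr5 was at 269, 194, 243 and 232 CPM in stem-like clone cells and at 214, 163, 195 and 217 CPM in stem-like control cells (0.25 ± 0.12, adjusted p = 0.954). It was higher in 4 of 4 mice by much less than in the sums over all cells. Olfm4 was at 5926, 5369, 5881 and 5440 CPM against 5340, 3893, 7336 and 7210 CPM, higher in 2 mice and lower in 2 (-0.03 ± 0.07). Edn1 was at 817, 635, 641 and 384 CPM against 671, 383, 493 and 249 CPM (0.47 ± 0.10). Of the 15 crypt base genes, which helped to form this class, 8 had positive and 7 negative fold changes (median 0.05).

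In dividing cells genes were called in both directions. The median mitochondrial share there was 9.0% in the clones and 11.7% in the control cells, against 7.35% and 7.17% in stem-like cells, and its part in these calls was not tested. There 54 of 8183 genes (0.66%) were called higher in the clones and 51 (0.623%) lower with the paired fit, and 0 without pairing, where 430 had an unadjusted p under 0.05 and the lowest adjusted p was 0.108. Of the 105 called genes, 79 were also called in the sums over all cells, where 1.89% of the tested genes were higher and 2.4% lower. Dividing cells are part of those sums, so this overlap is partly built in and is not independent. Of 14 crypt base genes, 5 were called higher in dividing cells and none lower. Olfm4 was at 2400, 3092, 3706 and 3051 CPM in dividing clone cells and at 1521, 1238, 2542 and 1915 CPM in dividing control cells (0.79 ± 0.08, adjusted p = 3.41e-05 in edgeR). It was higher in each mouse, with overlap through mouse 7. Lgr5 was at 90.5, 58.2, 142 and 133 CPM against 38.3, 77.2, 58.7 and 42.9 CPM, higher in 3 mice and lower in mouse 6, which gave only 10 dividing clone cells (1.14 ± 0.17, adjusted p = 0.00143). Without mouse 5 its log2 fold change in dividing cells was 0.53 and did not pass (adjusted p = 0.457). Sox9, a transcription factor of the crypt, was at 220, 286, 354 and 172 CPM against 91.4, 162, 175 and 114 CPM (0.95 ± 0.11). Axin2 (0.54 ± 0.10) and Hes1 (0.58 ± 0.08) were called higher as well, in 4 of 4 mice, though not Axin2 without mouse 8 (adjusted p = 0.0727). The largest changes upward among genes of moderate level and 1 direction in 4 of 4 mice were those of Sp5, Timp3, Cldn4, a tight junction protein, Bex4 and Stra6l, from 1.11 to 1.37. In enterocyte-like cells Lgr5 stood at 3.04 and 0.868 CPM in the 2 gates, against 119 and 49.5 in dividing cells. The part of free RNA in these levels was not tested.

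A minority of the goblet and enterocyte genes tested were called lower in the dividing clone cells, and Paneth genes were not (none of 6 tested called, 4 positive, median 0.11). Muc2 was at 52.0, 31.8, 123 and 127 CPM in them and at 227, 149, 171 and 160 CPM in dividing control cells, with no overlap (-1.26 ± 0.12, adjusted p = 7.63e-06 in edgeR). The goblet genes Fcgbp, Agr2 and Spink4 were also called lower, 4 of 11 tested in all. In enterocyte-like cells Muc2 stood at 32.7 CPM in the clones and at 26.0 in the control cells. The part of free RNA or mixed droplets in these levels was not tested. Fabp6 was at 92.7, 74.1, 108 and 453 CPM against 313, 523, 383 and 1174 CPM, lower in each mouse, with the highest clone value in mouse 8 (-1.77 ± 0.12, adjusted p = 7.85e-08 in edgeR). Of 11 enterocyte genes, Fabp2, Sis and Krt20 were called lower and none higher. The largest falls by the same rule were those of Apol10a, Chp2, Fabp6, St3gal4, a sialyltransferase, and Cdkn2b, an inhibitor of cyclin-dependent kinases, from -1.75 to -1.95. Mki67 was not called (-0.09 ± 0.09, adjusted p = 0.811), and none of the 40 cell cycle genes was called. The clones and the control cells had 63 and 65 dividing cells in cluster 0, led by mitotic genes, 56 and 52 in cluster 1, 102 and 72 in cluster 2, led by histone genes, and 8 and 11 in cluster 8. The make-up was unequal in mouse 5, where 8 of 48 dividing clone cells were in cluster 0 and 25 in cluster 2, against 30 and 28 of 86 dividing control cells. Its part in the results for dividing cells was not tested. A test of whether the difference between gates was itself unequal in dividing and stem-like cells called 2 of 8421 genes (0.0238%). These were Fabp6 (-1.77 ± 0.21, adjusted p = 1.36e-05 in edgeR) and Olfm4 (0.81 ± 0.11, adjusted p = 3.57e-05), where the values are the log2 fold change in dividing minus that in stem-like cells. Olfm4 also leads stem-like cluster 7 and helped to name that class, so the choice of stem-like cells acts on its level in both gates and its value here is not independent of the clustering. In stem-like cells alone the log2 fold change of Fabp6 was -0.01 ± 0.18. With the mice pooled, Fabp6 was at 91.4 CPM in stem-like clone cells and 76.9 in stem-like control cells. In dividing cells it was at 284 and 594 CPM, in goblet-like cells at 49.2 and 62.2 and in tuft-like cells at 89.4 and 45.4. The stem-like levels were thus near those of other classes, and the part of free RNA in them was not tested. Lgr5, Sox9 and Muc2 did not pass the test of an unequal difference between the classes.

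**Figure D4:**
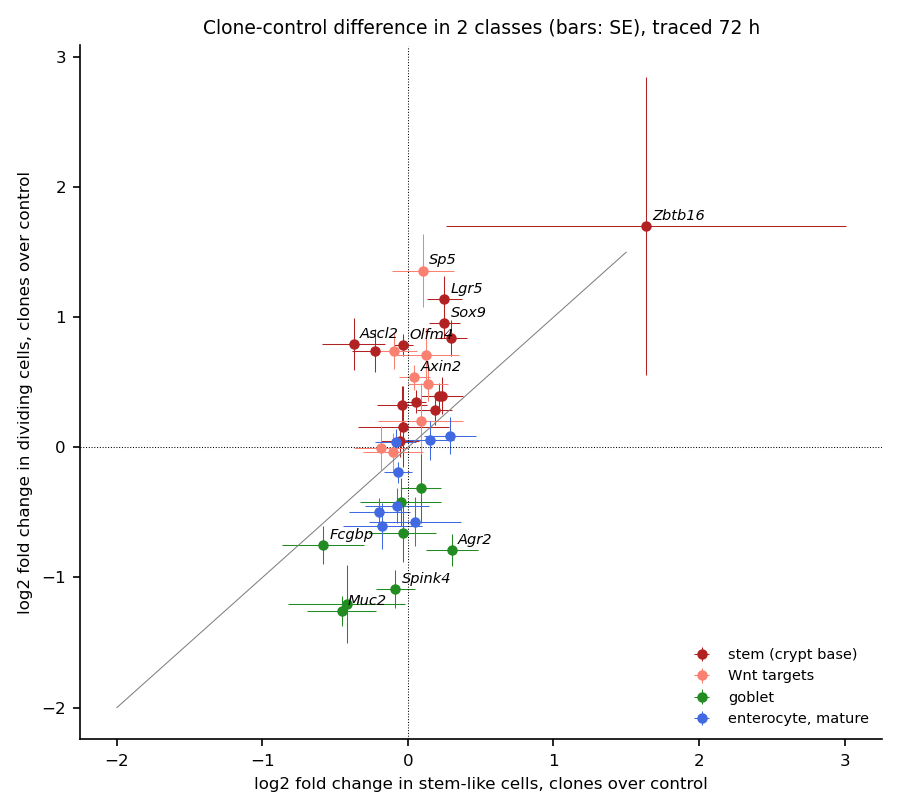
Log2 fold change of clones over control in dividing cells (vertical axis) against that in stem-like cells (horizontal axis) for genes of 4 lists, with bars of 1 SE and a grey line of equal change. Most stem and Wnt genes lie above the line and near 0 on the horizontal axis, and goblet genes such as Muc2 and Spink4 below it; between the classes, the difference passed a test of its own for Olfm4 alone among the genes shown, a gene that also helped to name the stem-like class.

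Secretory progenitor-like cells were too few for a test, with 14, 4, 5 and 28 cells in the clones of mice 5 to 8 and 36, 13, 7 and 15 in the control epithelium, and their values are given without one. Lgr5 was at 29.7, 53.5, 62.4 and 9.36 CPM in the clones (13, 5, 6 and 7 UMIs) and at 1.26, 7.57, 0 and 9.26 CPM in the control cells (1, 2, 0 and 4 UMIs). It stood above the control value in mice 5, 6 and 7 and level with it in mouse 8. Olfm4 was at 303.9, 1060, 1663 and 257 CPM against 107, 151, 288 and 137 CPM, higher in 4 of 4 mice, with the widest gaps in the 4 and 5 cells of mice 6 and 7. Muc2 was at 2091, 5758, 2827 and 4672 CPM against 1848, 1203, 1794 and 2893 CPM, also higher in 4 of 4. Zg16, a product of more mature goblet cells, was at 135, 64.2, 2318 and 392 CPM against 1406, 344, 1061 and 502 CPM, lower in all but mouse 7. Atoh1 was at 89.1, 32.1, 208 and 190 CPM against 155, 87.0, 133 and 183 CPM, with no common direction. Paneth products were uneven. In mouse 6 alone Lyz1 reached 3714 CPM in its 4 progenitor-like clone cells, against 26.5 CPM in control cells, and in the other 3 mice it was between 22.9 and 106 CPM in the clones. Goblet-like cells showed no such Lgr5 signal, with 1 UMI in 64 clone cells and 2 in 104 control cells. Other secretory classes did carry Lgr5. With the mice pooled it was at 14.9 and 21.3 CPM in Paneth-like clone and control cells (7 and 20 UMIs). In tuft-like cells it was at 41.3 and 75.6 CPM (6 and 20 UMIs), against 22.5 and 4.21 CPM in progenitor-like cells. Enteroendocrine-like cells had 0 and 1 UMIs. Mixed droplets were in effect not removed, and their part in these values was not tested.

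The same clone-control difference at 48 h could be set beside that at 72 h only weakly, since the 48 h clones gave 4, 18, 46 and 8 cells in mice 1 to 4. The 46 clone cells of mouse 3 had a median of 1638 UMIs and 885 genes, against 13135.5 to 21824 UMIs in the other 7 groups of 48 h cells. In 1 fit of all 16 sums, the log2 fold change of Lgr5 was 1.29 ± 0.30 at 48 h and 1.25 ± 0.20 at 72 h, and that of Olfm4 0.92 ± 0.22 and 0.99 ± 0.22. Without mouse 3 the values at 48 h were 1.66 ± 0.30 for Lgr5 and 1.03 ± 0.26 for Olfm4. The test of the difference between the times called 2 of 10642 genes (0.0188%), the enteroendocrine genes Gcg and Chgb. Gcg had 0, 0, 1 and 1 UMIs in the 48 h clones and 4, 0, 3 and 2517 in the 72 h clones, and Chgb had 0, 0, 52 and 0 and then 4, 0, 7 and 2251. Their fitted values depend on the small count that edgeR adds to sums of 0, and nearly all clone UMIs at 72 h came from mouse 8. The control cells were uneven too. Gcg had 1161, 1, 133 and 733 UMIs in them at 48 h and 19, 10, 0 and 1709 at 72 h. Chgb had 721, 6, 6312 and 131 and then 1350, 1239, 3 and 1330. Neither gene passed without mouse 3, without mouse 8, without the pairing or without the pool term in edgeR, and the sign for Chgb turned without the pool term (-0.79). Atoh1 had a log2 fold change of -3.40 ± 0.54 at 48 h (-3.45 ± 0.64 without mouse 3) and of -0.57 ± 0.19 at 72 h, and the difference did not pass (adjusted p = 0.315 in edgeR).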

How the data were processed

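Single-cell RNA and hashtag libraries of 2 pools were analysed. Per the labels' submitters' processing notes, the authors used Cell Ranger 6.1.2 and the mm10 build, and the deposited matrices hold raw UMI and hashtag counts for 32285 genes and 8 hashtags; the feature and barcode lists the authors deposited carry other entries (identifiers and names). How hashtags were called by the authors is not given in the sources used here. Hashtag and pool gave mouse and gate, per the labels. The members, gene lists and tests were chosen with earlier results of these data known.

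Counts were summed per mouse and gate and, over all genes kept by filterByExpr, tested with edgeR 4.0.16 (R 4.3.3; TMM, quasi-likelihood F-test, two-sided, model of mouse, pool and gate with 2 residual degrees of freedom for 8 sums; SE = absolute log2 fold change divided by the square root of F; Benjamini-Hochberg adjustment). Per-sample CPM values use TMM library sizes. DESeq2 1.42.0 was an alternative. The replicate is the mouse. Gates of 1 mouse come from the same animal, and their deviations correlated across genes at 0.353, 0.231, 0.344 and 0.518 in mice 5 to 8. Cells were scaled to 10000 counts and clustered in scanpy 1.11.5 (python 3.11.15; 2000 variable genes, 30 components, 15 neighbours, Leiden resolution 1.0), and clusters were named from at least 3 markers among 50 leading genes (dividing: at least 8 cycle genes among 100). Scrublet marked 4 of 2352 and 5 of 1797 barcodes in the pools, too few to say that doublets were found. Shares were compared with exact tests, and limits from 0 cells are 3 counts of the total and cover counting error only.

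The text names, each way, the 12 called genes of largest fold change (average log2 CPM of at least 4, 1 direction in 4 of 4 mice), the 3 most abundant tested members of each of 28 lists, 16 further genes and, within a class, 5 each way; called list members outside this rule, and genes of the progenitor-like cells, are named with their values known. Positions are from GENCODE M21 (GRCm38). Alternatives were DESeq2, other scaling and filters, no pairing, no pool term and leaving out each mouse.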

Additional observations from a re-analysis of the deposited data

Results flagged for a closer look

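Within each group of 4 mice, a sample was set aside for a closer look when its distance to the nearest other mouse, as a share of the whole range, passed Dixon's 95% limit. Of 100 sets of 4 values examined, 7 passed, and chance alone gives about 1 in 20. The 7 are not a full list of the values above that stand apart. Lyz1 in progenitor-like clone cells is not among them, at 3714 CPM in mouse 6 and 22.9 to 106 CPM in the other 3 mice. Nor is the summed level of immune markers, at 49.4 CPM in the control cells of mouse 8. The control epithelium of mouse 8 had the highest share of secretory cells, 49.2%, apart from the other 3 mice, and the highest share of tuft-like cells, 6.01%. The clones of mouse 8 had the highest share of enteroendocrine-like cells, 1.46%, and were the only clones with any. In the same clones the granule protein genes Chga, at 67.6 CPM, and Chgb, at 309 CPM, stood apart from the other 3 mice. Dividing clone cells of mouse 8 had the highest level of Fabp6, at 453 CPM. In the secretory progenitor-like clone cells Zg16 stood apart in mouse 7, at 2.32e+03 CPM in 5 cells.

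The clone-control difference passed a test of unequal size at the 2 tracing times, over all 16 sums in edgeR, for Gcg, the glucagon precursor, and Chgb. The fitted log2 fold change at 72 h minus that at 48 h was 4.30 for Gcg and 2.47 for Chgb (adjusted p = 0.0317 for each). With 2 Gcg UMIs in all 48 h clones, and 52 Chgb UMIs, all in mouse 3, these values depend on the small count that edgeR adds to sums of 0, and neither passed without mouse 3 or without mouse 8 (adjusted p = 0.0547 and 0.128 for Gcg, 0.661 and 0.468 for Chgb).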

How the results depend on the processing

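The sums over all cells gave 201 genes higher and 256 lower, and other settings gave different numbers. DESeq2 called 49 higher and 87 lower, the fit with no filter on low counts 449 and 729, the fit without the pool term 93 and 130, all 16 sums in 1 fit 113 and 154, a top hashtag of at least 80% 92 and 90, a mitochondrial share under 10% 73 and 138, and one under 50% 283 and 493. RLE scaling, at least 2000 UMIs and removal of marked doublets gave 187 to 199 higher and 259 to 294 lower. Leaving out each mouse gave 22 to 401 higher and 30 to 736 lower, the fewest without mouse 5 and the most without mouse 6, and the cause was not tested. Of the genes named, 38 were no longer past the test without mouse 5, none without mouse 6, 16 without mouse 7 and 16 without mouse 8, 19 with DESeq2 and 23 without the pool term.

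The pairing comes from the animals, since both gates were sorted from each mouse. Without the replicate block (the mouse term) edgeR called 0 genes higher and 0 lower over all cells, 0 and 0 in dividing cells, and 0 for the difference between times, which was also 0 without the pool term and, in fits added after seeing the data, 0 without mouse 3 and 0 without mouse 8. DESeq2 without the block, added after seeing the data, called 8 and 11. Fabp6 in stem-like cells turned to 0.072 without the block.

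Among stem-like cells, leaving out each mouse gave 0 to 9 genes higher and 0 to 3 lower, and among dividing cells 37 to 85 higher. Among the genes called over all cells, 1 of 416 tested turned sign with a top hashtag of at least 80%, and 1 of 437 without mouse 8. Signs also turned, on the log2 scale, for named genes that had not been called. Over the 4 leave-outs Mgam ran from -0.0524 to 0.1661, Mki67 from -0.1072 to 0.2838, Muc2 from -0.5986 to 0.0135, Neurog3 from -1.2121 to 2.6405, Olfm4 in stem-like cells from -0.1031 to 0.0557, Fabp6 in stem-like cells from -0.2506 to 0.1636 and Mki67 in dividing cells from -0.2924 to 0.0396. Epcam turned to 0.0186 at a mitochondrial share under 10%, and the difference in Chgb between times, which had passed its test, to -0.7858 without the pool term. The difference in the share of dividing cells ran from -1.8626 percentage points without mouse 8 to 3.83 without mouse 5, and that of Paneth-like cells turned to 0.1099 at Leiden resolution 1.5.

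Depth limits the clone sum of mouse 6 (37 cells), the rare classes and every per-class level outside stem-like and dividing cells, where intervals from counting are wide and no test was made. Both gates of a mouse were in different pools, so pool and gate are separated only through the exchange between mice 5 and 6 and mice 7 and 8.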

Other observations

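Esr1 (chr10:4611593-5005614), which encodes oestrogen receptor alpha, was chosen after its values were seen. It was at 10.2, 6.85, 18.9 and 12.9 CPM in the clones of mice 5 to 8 and at 1.19, 2.83, 2.62 and 1.45 CPM in the control cells, on 180 and 25 UMIs in all. Clone and control values did not overlap, each clone was higher, and the log2 fold change was 2.72 ± 0.31 (SE, adjusted p = 0.00272 in edgeR). Without the mouse term it had the lowest adjusted p of all genes tested in edgeR, 0.198, and with DESeq2 it was 1.64e-05. By class, it stood at 24.4 CPM in stem-like clone cells against 6.52 in stem-like control cells, and at 15.9 against 0.935 in dividing cells. In goblet-like cells it was at 0.639 against 0.728 and in enterocyte-like cells at 0 against 0.434 CPM. Within stem-like cells the log2 fold change was 1.56 ± 0.42 and did not pass (adjusted p = 0.231 in edgeR), and it was higher in 4 of 4 mice. CreERT2, carried by all cells here on the Lgr5 allele, is Cre joined to the ligand-binding part of this receptor. Reads from the gene itself and reads from the allele cannot be told apart in these counts.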
